A study of Mus musculus with 17 samples.

Results

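The genes described here encode enzymes of glycolysis and the enzyme that follows it: the hexokinases Hk1 and Hk2, glucose-6-phosphate isomerase Gpi1, the aldolases Aldoa and Aldoc, the enolases Eno1 and Eno2, pyruvate kinase Pkm, and the lactate dehydrogenase subunits Ldha and Ldhb. They were chosen by name, as the 10 of 55359 genes in the table of counts whose Ensembl identifier carries one of these symbols in GENCODE. All 10 were found, and all 10 passed the filter on low counts in each organ. RNA was sequenced from the testes and from the forebrain, hippocampus included (the sample labels name only the hippocampus), of male mice at postnatal day 1. The WT pups had WT mothers, whereas the Ocn+/- and Ocn-/- pups, which lack osteocalcin on 1 or on both alleles, all had Ocn-/- mothers. The null allele was Ocn_GK, a product of gene targeting, on 129/SvEv mice. There were 2 WT, 3 Ocn+/- and 3 Ocn-/- libraries of testes and 3 of each genotype of forebrain. In every comparison with WT the genotype of the pup, the genotype of the mother and the litter therefore cannot be told apart. The study counts its samples as mice, in testes as many as there are libraries and in WT forebrain fewer than there are libraries. Nothing in the sources used here ties a testis library to a forebrain library of the same mouse.

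Glycolysis splits glucose into pyruvate and yields ATP without oxygen, and lactate dehydrogenase turns pyruvate into lactate and regenerates the NAD+ that the pathway consumes. Several of its steps can be run by more than 1 enzyme, each encoded by its own gene and used to a different extent by each tissue. Hexokinase 1 is the main hexokinase of brain, and hexokinase 2 that of insulin-responsive tissues such as muscle. Aldolase A and enolase 1 are the widespread forms, while aldolase C is typical of brain, where astrocytes and Purkinje cells carry it, and enolase 2 is the neuronal enolase. Lactate dehydrogenase is a tetramer of A and B subunits, of which A prevails in tissues that make lactate and B in tissues that burn it. Many genes of the pathway, Ldha, Eno1, Aldoa, Hk2 and Pgk1 among them, are textbook targets of hypoxia-inducible factor, which binds a short element with the core ACGTG or GCGTG.

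The 250 bases upstream of the canonical start of 3 of these genes are shown because Ldha fell most in testes, and Gpi1 and Eno1 fell most clearly in forebrain. They were read from GRCm39, 5′ to 3′ on the strand of the gene, with each ACGTG or GCGTG on either strand in capitals. Other annotated starts of Ldha and Eno1 lie inside these windows.
Ldha, chr7:46495013-46495262, plus strand: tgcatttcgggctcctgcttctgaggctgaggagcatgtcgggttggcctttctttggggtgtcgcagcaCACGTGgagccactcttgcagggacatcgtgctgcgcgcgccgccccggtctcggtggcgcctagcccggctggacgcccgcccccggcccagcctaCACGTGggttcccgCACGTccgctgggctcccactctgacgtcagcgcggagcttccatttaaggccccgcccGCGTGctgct
Eno1, chr4:150320893-150321142, plus strand: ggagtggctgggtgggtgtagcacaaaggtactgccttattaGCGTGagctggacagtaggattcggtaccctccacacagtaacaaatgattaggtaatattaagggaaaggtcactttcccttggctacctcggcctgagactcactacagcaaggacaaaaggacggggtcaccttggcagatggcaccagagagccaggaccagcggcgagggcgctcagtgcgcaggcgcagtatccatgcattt
Gpi1, chr7:33929781-33930030, minus strand: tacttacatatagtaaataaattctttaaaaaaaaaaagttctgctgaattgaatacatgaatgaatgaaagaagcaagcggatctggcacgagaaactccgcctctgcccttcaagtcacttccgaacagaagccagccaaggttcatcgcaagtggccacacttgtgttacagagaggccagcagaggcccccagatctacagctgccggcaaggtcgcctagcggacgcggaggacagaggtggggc
The Ldha window held 4 such stretches, which began 180, 83, 69 and 10 bases before the start, and 2 of them contained CACGTG, the E-box, which overlaps the core. The Eno1 window held 1 stretch and the Gpi1 window 0. Of all 21757 promoter windows of the same length, 41.34% held at least 1 core and 15.04% at least 2, while 6.27% held an E-box and 0.501% at least 2. Of 6 further members, Hk2 had 2 stretches, Hk1 and Aldoa 1 each, and Aldoc, Eno2 and Pkm 0. A match describes these letters and does not show a bound factor.

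Library totals ran from 7302401 to 8289015 counts in testes and from 6518151 to 14621584 in forebrain. The library of WT forebrain 3 stood apart, with the lowest total and 8.50% of its counts in the ribosomal RNA gene Rn18s-rs5, against at most 0.805% in any other. It also had 5.34% of its counts in mitochondrial genes, against 2.40% to 3.18% in the other 8 forebrain libraries. Their part in the results was not tested, and the forebrain calls of the glycolytic genes are also given without this library. The osteocalcin genes Bglap and Bglap2 had at most 5 counts in every library, too few to check the genotypes. The organs matched their names: all 10 neuronal markers were higher in forebrain and all 10 Sertoli cell markers higher in testes. In bulk tissue, fewer cells of a type and less RNA per cell cannot be told apart.

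Each member was first placed by its level in the WT libraries of an organ, in CPM (counts scaled to the TMM-adjusted library total) per kb of its canonical transcript, the scale of all levels below. In WT testes Aldoa led with 352 ± 31.8 (SD, n = 2), followed by Eno1 with 304 ± 37.4, Ldha with 275 ± 30.5 and Pkm with 260 ± 36.2, and the ranges of these neighbours overlapped. Ldhb (130 ± 4.13), Gpi1 (95.2 ± 19.2), Hk1 (20.6 ± 0.332) and Hk2 (16.2 ± 1.93) followed without overlap. Aldoc (6.11 ± 1.23) and Eno2 (3.86 ± 0.0540) were the lowest. In WT forebrain the same 4 genes were on top, Ldha with 208 ± 29.1 (SD, n = 3), Aldoa with 196 ± 15.1, Eno1 with 173 ± 18.3 and Pkm with 170 ± 8.63, again overlapping as neighbours. Below them came Gpi1 (120 ± 14.2), Ldhb (82.6 ± 5.16), Hk1 (65.2 ± 1.5), Eno2 (49.6 ± 1.68) and Aldoc (43.3 ± 4.44), and Hk2 was last with 1.15 ± 0.265. On this scale the 2 organs thus shared the leading enzymes and differed in the minor isozymes. Orders between genes, here and below, rest on the canonical length. With the union of all exons as the length, Hk1 was 37.5% and 42.1% of both hexokinases in the 2 WT testes, less than Hk2.

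**Figure D1:**
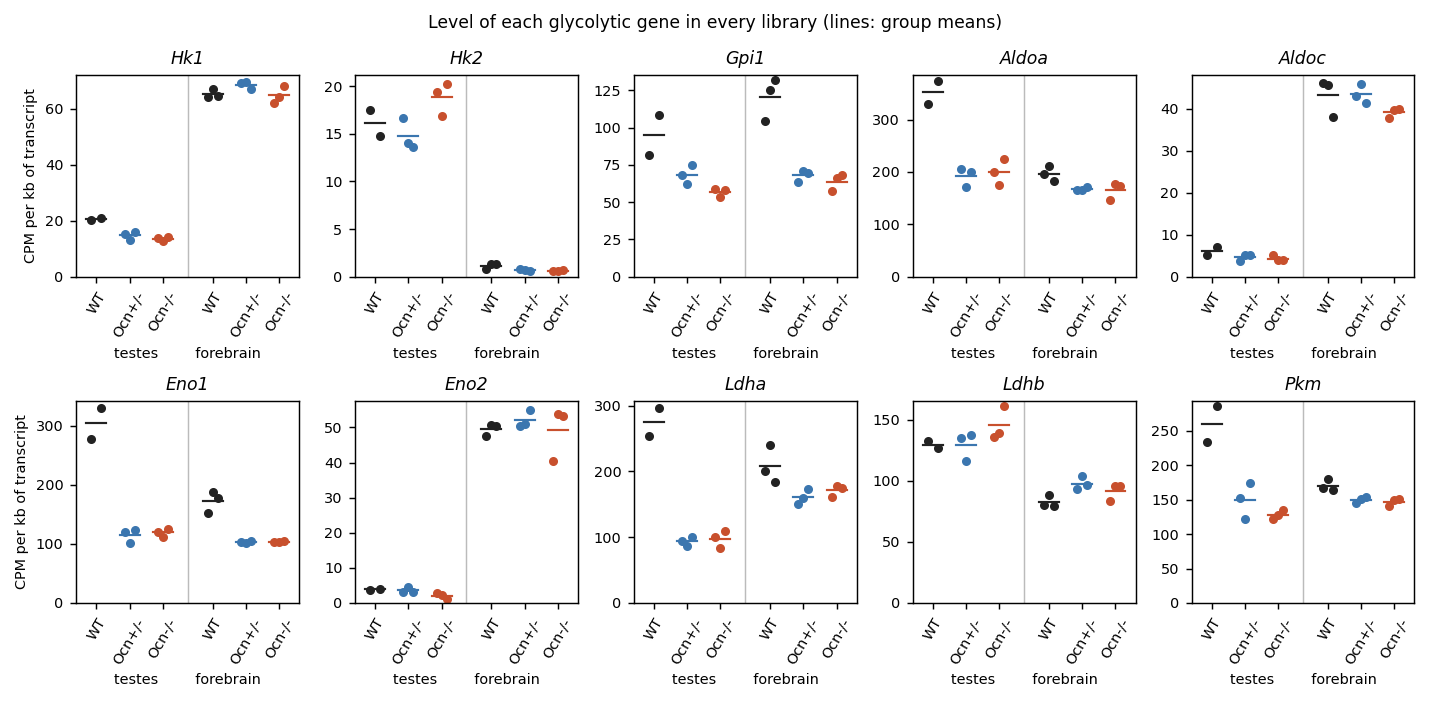
Level of the 10 genes in each of the 17 libraries, in CPM per kb of canonical transcript, by genotype in testes (left of the grey line) and forebrain (right); points are libraries and lines group means. Hk2 lies at 13.6 to 20.2 in testes and at 0.570 to 1.32 in forebrain, and Ldha at 254 and 297 in WT testes against 83.1 to 110 in the 6 mutant testes.

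The first comparison asked which isozyme each organ used. In a fit of all 17 libraries over 17800 genes with edgeR's quasi-likelihood test, 5 members were higher in forebrain, where 39.9% of all genes were, and 5 higher in testes, where 44.5% were. With such a background a call by itself says little, and the size of the difference is what separates the isozymes. Each gene was compared with itself, with no correction for length, and whether the organs use transcripts of different length was not tested.

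The hexokinases, which trap glucose in the cell, differed most between the organs. Hk1 was at 12.8 to 20.8 CPM per kb in the 8 testes and at 62.1 to 69.4 in the 9 forebrains, and its log2 difference, forebrain minus testes, was 2.04 ± 0.0554 (SE; adjusted p = 4.77e-21). Hk2 ran the other way, with a log2 difference of -4.40 ± 0.0928 (adjusted p = 3.03e-23). Within a library, Hk1 made up 98.8% ± 0.429 (SD, n = 9) of the 2 transcripts in forebrain and 48.6% ± 6.39 (SD, n = 8) in testes. The ratio of Hk1 to Hk2 was 89.3-fold higher in forebrain, and no forebrain library overlapped a testis library (exact permutation test, two-sided p = 4.11e-05, adjusted over 4 pairs p = 5.48e-05). In the WT libraries alone the log2 ratio differed by 5.499, against 6.48 over all libraries, and the WT testes share of Hk1 was 56.1% ± 3.33 (SD, n = 2). The testes share also rests on the transcript length used, since dividing by the union of all exons gave 33.1% for Hk1.

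The aldolases, which cleave fructose-1,6-bisphosphate, and the enolases, which form phosphoenolpyruvate, were both nearly of 1 kind in testes and mixed in forebrain. Aldoc ranged from 3.65 to 6.98 CPM per kb in testes and from 37.7 to 46.1 in forebrain (log2 difference 3.08 ± 0.0861, adjusted p = 8.35e-21), whereas Aldoa was lower in forebrain by a log2 difference of -0.44 ± 0.0618 (-0.84 ± 0.114 in the WT libraries alone). Aldolase C transcripts were 19.3% ± 1.44 (SD, n = 9) of both aldolases in forebrain and 2.11% ± 0.474 (SD, n = 8) in testes. With union exon lengths Aldoa was 66.4% of both in forebrain and 95.6% in testes, which leaves a larger share to Aldoc in each. Eno2, the neuronal enolase, ranged from 1.26 to 4.43 CPM per kb in testes and from 40.4 to 54.9 in forebrain (log2 difference 4.02 ± 0.108, adjusted p = 1.56e-20), and Eno1 was lower in forebrain (-0.40 ± 0.0582, and -0.82 ± 0.107 in the WT libraries alone). Eno2 was 29.3% ± 5.57 of both enolases in forebrain and 2.14% ± 1.03 in testes. The log2 ratio of Aldoa to Aldoc differed by -3.5 (forebrain minus testes) and that of Eno1 to Eno2 by -4.37, each without overlap between organs and with the same exact permutation p = 4.11e-05, the smallest this test can give. The share of Eno1 in forebrain depends on lengths and on how reads are assigned: it was 51.3% of both enolases with union exon lengths, and 79.0% with the counts of its copy Eno1b added.

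The lactate dehydrogenase subunits differed less between the organs, and their order depended on the genotype. Ldhb was at 116 to 161 CPM per kb in testes and at 79.1 to 104 in forebrain (log2 difference -0.57 ± 0.0579, adjusted p = 1.74e-09). Ldha was called higher in forebrain over all libraries (0.39 ± 0.0669), a call that ended with scaling by library size alone (0.08, adjusted p = 0.329). In the WT libraries alone it was lower there, by -0.40 ± 0.122 (adjusted p = 0.00554), with 254 and 297 CPM per kb in WT testes and 201, 241 and 184 in WT forebrains. In WT the share of Ldha in both subunits was 67.9% ± 3.11 (SD, n = 2) in testes and 71.5% ± 1.59 (SD, n = 3) in forebrain, ranges that overlapped. Their log2 ratio differed by 0.25 between the WT organs (exact permutation p = 0.30, smallest possible 0.10).

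The 2 members without a partner in the set were close between the organs. Gpi1, which converts glucose-6-phosphate to fructose-6-phosphate, was slightly higher in forebrain (0.17 ± 0.0667, adjusted p = 0.0246) and Pkm, which makes pyruvate, slightly lower (-0.14 ± 0.0630, adjusted p = 0.0494). In the WT libraries alone these log2 differences were 0.34 ± 0.125 and -0.61 ± 0.116. Scaling by library size alone turned the direction of Gpi1 (-0.16, adjusted p = 0.029), and upper quartile normalization gave 0.02 (adjusted p = 0.788). Of 9 alternatives other than leaving out 1 library, 6 called Gpi1, the reversed one included. The call of Pkm was kept in only 3 of 17 fits that left out 1 library and was not made by DESeq2 (adjusted p = 0.0967). Scaling by library size also moved the median log2 difference of all genes from -0.09 to -0.40. The splice forms of Pkm cannot be separated in counts per gene. Other isozymes of these steps were rare: Hk3, Hkdc1, Eno4, Ldhc and Pklr had at most 34 counts in any library, and Eno3, the muscle enolase, had 62 to 109 counts in testes and 18 to 48 in forebrain.

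**Figure D2:**
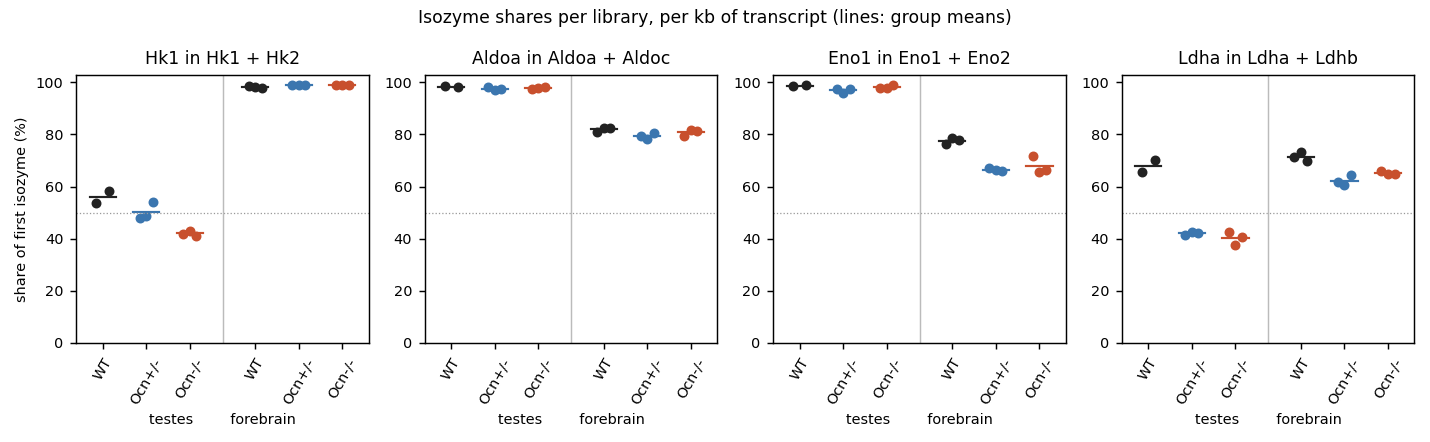
Share of the first isozyme in each pair, in percent of the sum of both per kb of transcript, in each of the 17 libraries; points are libraries, lines group means and the dotted line 50%. Hk1 lies between 98.0% and 99.1% in forebrain and between 41.1% and 58.5% in testes, and Ldha between 37.5% and 42.7% in mutant testes against 65.7% and 70.1% in WT testes.

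The second comparison asked how these genes differed between mutant and WT testes. In Ocn+/- testes 6 of the 10 members were lower than in WT (Hk1, Gpi1, Aldoa, Eno1, Ldha and Pkm) and 0 higher, where 4.36% of the 16361 genes tested were called lower. The same 6 were lower in Ocn-/- testes, where 3.09% of genes were. These comparisons share the WT libraries, so they are not independent of each other. The median log2 fold change of the 10 members was -0.46 in Ocn+/- and -0.78 in Ocn-/- testes, against 0.01 and -0.01 over all genes.

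Ldha fell most. The 2 WT libraries had 254 and 297 CPM per kb of Ldha, the Ocn+/- libraries 94.9, 86.7 and 101, and the Ocn-/- libraries 101, 83.1 and 110. Every mutant library lay well below both WT libraries. The log2 fold change was -1.54 ± 0.133 (SE) in Ocn+/- (adjusted p = 5.61e-06) and -1.49 ± 0.133 in Ocn-/- testes (adjusted p = 8.90e-06). Ldhb, the other subunit, was at 132 and 127 in WT, 135, 116 and 138 in Ocn+/-, and 136, 139 and 161 in Ocn-/- testes. The Ldhb groups overlapped, and its log2 fold changes of 0.01 and 0.17 did not pass the test (adjusted p = 0.975 and 0.457).

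Eno1 was the next largest. It was at 278 and 331 CPM per kb in WT, 121, 102 and 124 in Ocn+/-, and 121, 111 and 126 in Ocn-/- testes, with log2 fold changes of -1.39 ± 0.127 (adjusted p = 8.79e-06) and -1.35 ± 0.127 (adjusted p = 1.50e-05). All mutant libraries were thus below both WT libraries. Eno2 had 31 to 110 counts per testis library, at log2 fold changes of -0.08 (adjusted p = 0.895) and -0.86 (adjusted p = 0.0914). Of the 50-base stretches of the canonical Eno1 transcript, 62.2% also occurred in Eno1b, a near-identical copy to which 45.0% to 62.0% of the number of Eno1 counts had been assigned. With the counts of Eno1b added to Eno1 (chosen after seeing the data) the log2 fold changes were -1.32 and -1.36.

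Aldoa and Pkm fell by a smaller amount. Aldoa was at 330 and 374 CPM per kb in WT, 206, 172 and 201 in Ocn+/-, and 200, 176 and 225 in Ocn-/- testes (log2 fold changes -0.86 ± 0.131 and -0.81 ± 0.130, adjusted p = 0.00157 and 0.00209). Pkm was at 234 and 285 in WT, 153, 122 and 174 in Ocn+/-, and 121, 128 and 135 in Ocn-/- testes (-0.78 ± 0.145 and -1.02 ± 0.144, adjusted p = 0.00540 and 0.000824). Neither gene overlapped between WT and mutant libraries. Aldoc, with 87 to 173 counts per testis library, had log2 fold changes of -0.39 and -0.51 that did not pass (adjusted p = 0.287 and 0.191).

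Gpi1 and Hk1, which act early in the pathway, were also lower. Gpi1 was at 81.6 and 109 CPM per kb in WT, 68.1, 61.9 and 74.9 in Ocn+/-, and 59.1, 53.3 and 58.2 in Ocn-/- testes (-0.47 ± 0.136 and -0.74 ± 0.136, adjusted p = 0.0439 and 0.00530). Hk1 was at 20.3 and 20.8 in WT, 15.2, 13.3 and 16.2 in Ocn+/-, and 14.0, 12.8 and 14.1 in Ocn-/- testes (-0.46 ± 0.125 and -0.59 ± 0.125, adjusted p = 0.0351 and 0.0121). Both were lower in each mutant library than in either WT library. Hk2 was at 17.5 and 14.8 in WT, 16.6, 14.1 and 13.6 in Ocn+/-, and 19.3, 16.9 and 20.2 in Ocn-/- testes, and its log2 fold changes of -0.12 and 0.22 did not pass the test (adjusted p = 0.598 and 0.339).

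Between Ocn-/- and Ocn+/- testes 0 members were called, as were 0% of all genes by edgeR, although 1881 genes had an unadjusted p under 0.05 and DESeq2 called 76 genes and edgeR's likelihood ratio test 59. The largest differences among members were those of Eno2 (-0.78 ± 0.269, adjusted p = 0.318) and Hk2 (0.34 ± 0.118, adjusted p = 0.322). With both mutant genotypes combined against WT, the same 6 members were lower, where 5.43% of genes were, and 7 members (these 6 and Aldoc) had every mutant library below both WT libraries, where 13.6% of genes did. The calls rest on the 2 WT libraries: without WT testis 2, a fit with 1 WT library, assumed to vary like the other groups, called 2 members in Ocn+/- (Eno1 and Ldha), 3 in Ocn-/- (these and Pkm) and 3 in both together (these 2 and Aldoa). Calls over all genes dropped in that fit as well: Ocn+/- testes had 118 where all libraries gave 1350, Ocn-/- testes had 85 where all gave 922, and the 2 genotypes together had 125 where all gave 1626. Without it the log2 fold changes of these 6 members stayed negative in both genotypes, at -0.75 for Aldoa and -0.23 for Gpi1 in Ocn+/- testes. The smaller changes were the least firm: in Ocn+/- testes Hk1 and Gpi1 were each called in only 2 of 8 fits that left out 1 library, and neither passed when scaled by library size alone (adjusted p = 0.0647 and 0.0727).

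Markers of some other cell types had separate ranges in WT and mutant testes. The summed level of 8 endothelial markers was 597 to 607 CPM in WT and 355 to 459 in the mutant libraries, and 3 of the 8 were called lower in Ocn+/- and 6 in Ocn-/- testes, where 4.36% and 3.09% of all genes were, the background for the other counts of lower markers too. That of 8 Leydig cell markers was 1964 to 2060 in WT and 931 to 1526 in mutants, and 1 and 2 of them were called lower. That of 8 neutrophil markers was 78.1 to 86.4 and 13.8 to 45.7, with 3 and 4 of 6 tested called lower. That of 10 astroglial genes was 1523 to 1576 and 1081 to 1477, with 1 and 2 of 8 tested called lower, whereas that of 7 erythroid markers overlapped, at 2600 to 6865 and 865 to 3943, with 0 of 6 tested called in either genotype. The 10 Sertoli cell markers summed to 2032 to 2250 in WT and 2088 to 3114 in mutants, with 1 called higher in each genotype, where 3.89% and 2.54% of all genes were higher. The 10 germ cell markers summed to 382 to 436 and 319 to 385, with 1 of 9 tested called lower in each. The sums of these last 2 lists overlapped as well. The part of these cell types in the fall of the glycolytic genes was not tested.

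**Figure D3:**
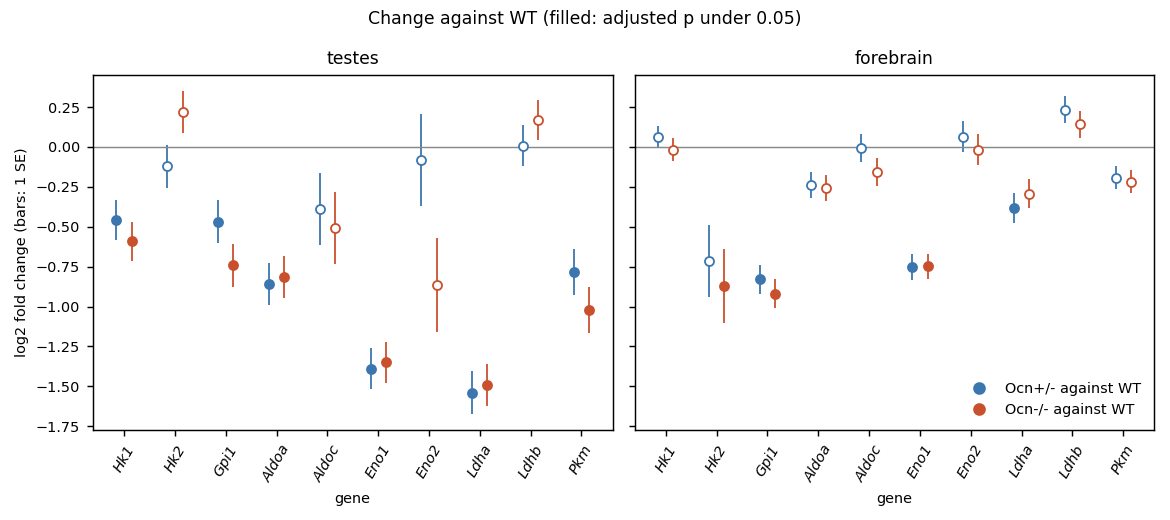
Log2 fold change of each gene against WT in testes (left) and forebrain (right), for Ocn+/- and Ocn-/- libraries; bars are 1 SE and filled points have an adjusted p under 0.05. In testes Ldha and Eno1 lie between -1.54 and -1.35, while in forebrain the most negative values are those of Gpi1 (-0.83 and -0.92), Hk2 and Eno1.

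The third comparison was the same in forebrain. In Ocn+/- forebrain 3 members were lower than in WT (Gpi1, Eno1 and Ldha) and 0 higher, where 2.68% of 16076 genes were lower, and in Ocn-/- forebrain 3 were lower (Hk2, Gpi1 and Eno1), where 3.05% were. The median log2 fold changes of the members were -0.21 and -0.24, against 0.01 over all genes in each. With both mutant genotypes together 6 members were lower (Hk2, Gpi1, Aldoa, Eno1, Ldha and Pkm), where 5.39% of genes were, and the same 6 had every mutant library below all WT libraries, where 8.57% of genes did. Without WT forebrain 3, the library that stood apart, the number of all genes called fell from 1395 to 320 (250 of them lower), and 3 members were called (Gpi1 -0.81, Eno1 -0.73 and Ldha -0.42).

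Gpi1 and Eno1 carried the clearest difference. Gpi1 was at 104, 125 and 132 CPM per kb in WT, 63.8, 71.0 and 69.3 in Ocn+/-, and 57.5, 66.1 and 67.9 in Ocn-/- forebrain. All mutant libraries lay below the lowest WT library, and the log2 fold changes were -0.83 ± 0.0916 (adjusted p = 4.39e-05) and -0.92 ± 0.0919 (adjusted p = 1.97e-05). Eno1 was at 153, 188 and 179 in WT, 102, 102 and 106 in Ocn+/-, and 102, 102.5 and 105 in Ocn-/- forebrain, so that the 6 mutant libraries spanned only 101.5 to 105.8. Its log2 fold changes were -0.75 ± 0.0798 (adjusted p = 2.68e-05) and -0.75 ± 0.0798 (adjusted p = 2.82e-05). Both genes were called in every fit that left out 1 library, WT forebrain 3 included, and with Eno1b counts added Eno1 gave -0.70 and -0.71.

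Hk2, the minor hexokinase of forebrain, had only 50 to 79 counts per library there. It was at 0.847, 1.29 and 1.32 CPM per kb in WT, 0.771, 0.729 and 0.582 in Ocn+/-, and 0.570, 0.587 and 0.706 in Ocn-/- forebrain. The groups did not overlap, and the log2 fold change of -0.87 ± 0.230 in Ocn-/- passed the test (adjusted p = 0.0348) while that of -0.72 ± 0.227 in Ocn+/- did not (adjusted p = 0.0801). Without WT forebrain 3 the value in Ocn-/- was -0.77 and no longer passed (adjusted p = 0.146), and in all it was kept in 5 of 9 fits that left out 1 library.

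Ldha was at 201, 241 and 184 CPM per kb in WT, 150, 160 and 174 in Ocn+/-, and 161, 177 and 175 in Ocn-/- forebrain. Its lowest WT library was close above the highest mutant library, and the log2 fold change passed the test in Ocn+/- (-0.38 ± 0.0932, adjusted p = 0.0286) but not in Ocn-/- (-0.29 ± 0.0932, adjusted p = 0.0741). The call in Ocn+/- was kept in 6 of 9 fits that left out 1 library, and without WT forebrain 2 it was lost (adjusted p = 0.130). Ldhb was at 80.2, 88.5 and 79.1 in WT, 93.4, 104 and 96.1 in Ocn+/-, and 83.4, 95.8 and 95.6 in Ocn-/- forebrain, with log2 fold changes of 0.23 (adjusted p = 0.126) and 0.14 (adjusted p = 0.351).

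Aldoa and Pkm passed only with both mutant genotypes together, with log2 fold changes of -0.25 ± 0.0722 (adjusted p = 0.0381) and -0.21 ± 0.0620 (adjusted p = 0.0444). Both calls were lost without any 1 of the WT libraries, and they held in 2 and in 1 of the 9 fits that left out 1 library. The brain-typical isozymes did not pass the test. Hk1 was at 64.1 to 67.0 CPM per kb in WT and 62.1 to 69.4 in mutants, Eno2 at 47.7 to 50.8 and 40.4 to 54.9, and Aldoc at 38.2 to 46.1 and 37.7 to 45.9. Their log2 fold changes with both genotypes together were 0.02 ± 0.0613, 0.02 ± 0.0852 and -0.08 ± 0.0765.

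Between Ocn-/- and Ocn+/- forebrain 0 members were called, and 0.00622% of all genes (1 gene) were, with 515 genes at an unadjusted p under 0.05 and 5 called by DESeq2. Of the markers, the 10 forebrain region genes summed to 1817 to 2306 CPM in WT and 1479 to 1758 in mutants, with 0 called in Ocn+/- and 1 called lower in Ocn-/-, where 2.68% and 3.05% of all genes were lower. The 6 peritubular myoid genes, low in this organ at 13.15 to 14.95 CPM in WT and 9.61 to 13.05 in mutants, did not overlap either, with 0 of 4 tested called in either genotype. The sums of the lists that follow overlapped. The 10 neuronal genes summed to 9816 to 10407 in WT and 9212 to 9829 in mutants, with 1 called lower in each genotype, and the 10 astroglial genes to 1572 to 1785 and 1592 to 2051, with 1 called higher in each, where 1.21% and 1.8% of all genes were higher. The 7 erythroid genes summed to 523 to 723 and 357 to 599, with 3 of 6 tested called lower in Ocn+/- and 1 in Ocn-/-. The 8 endothelial markers summed to 184 to 211 in WT and 157 to 224 in mutants, with 2 called lower in Ocn+/- and 1 in Ocn-/-. The 8 microglial markers summed to 69.6 to 84.8 and 75.3 to 99.4, with 1 of 7 tested called higher in each genotype. The part of these cell types in the results was not tested. Scaling by library size alone left 2 members called in each genotype and 3 with both together.

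Whether the mutants differed from WT by the same amount in both organs was tested with an interaction term in the joint fit, with both mutant genotypes together. It was called for 6 of the 10 members, where 2.96% of 17800 genes were called. Ldha differed most: its log2 fold change was 1.19 ± 0.145 higher in forebrain than in testes (adjusted p = 4.35e-05), from -1.51 ± 0.112 in testes to -0.34 ± 0.0799 in forebrain. Pkm (0.71 ± 0.138), Eno1 (0.63 ± 0.127), Aldoa (0.60 ± 0.136) and Hk1 (0.56 ± 0.115) also fell less in forebrain, or not at all in the case of Hk1 (adjusted p = 0.00811, 0.0106, 0.0170 and 0.0116). Hk2 went the other way (-0.81 ± 0.204, adjusted p = 0.0324), at 0.05 ± 0.119 in testes and -0.79 ± 0.195 in forebrain. Gpi1, with -0.60 ± 0.119 in testes and -0.87 ± 0.0771 in forebrain, did not pass (interaction -0.26 ± 0.147, adjusted p = 0.361). Without WT testis 2 the interaction was called for Ldha alone, and without WT forebrain 3 for Hk1, Eno1, Ldha and Pkm.

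The order of levels changed with genotype accordingly. In the 6 mutant testes Aldoa still led (197 ± 19.7 CPM per kb), but Ldha, at rank 3 in WT, was at rank 5 (96.0 ± 9.92), below Pkm (139 ± 20.9), Ldhb (137 ± 14.4) and Eno1 (117 ± 9.12), whose ranges overlapped as neighbours. In mutant forebrain Eno1 (103.3 ± 1.69) lay below Pkm (148 ± 4.68) without overlap, and Gpi1 (65.9 ± 4.82) was level with Hk1 (66.7 ± 2.94). In WT forebrain Gpi1 had been well above Hk1, at 120 against 65.2.

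The fourth comparison followed the isozyme shares within an organ. In testes the share of Ldha in both lactate dehydrogenase subunits was 65.7% and 70.1% in WT, 41.3%, 42.7% and 42.2% in Ocn+/-, and 42.6%, 37.5% and 40.5% in Ocn-/- libraries. The majority subunit was thus Ldha in each WT and Ldhb in each mutant testis. The log2 ratio of Ldha to Ldhb differed by -1.6 (mutants minus WT), a 3.03-fold lower ratio (exact permutation test, two-sided p = 0.0357, the smallest that 2 against 6 libraries allow, and p = 0.0714 adjusted over 8 shifts). In forebrain the share of Ldha was 71.5%, 73.1% and 69.9% in WT, 61.6%, 60.6% and 64.4% in Ocn+/-, and 65.9%, 64.9% and 64.7% in Ocn-/- libraries, without overlap (log2 ratio -0.516, exact permutation p = 0.0119, adjusted p = 0.0317). Ldha stayed the majority subunit in all 9 forebrains.

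The enolase share shifted in the same direction in forebrain, where Eno1 was 76.2%, 78.7% and 78.0% of both enolases in WT, 67.1%, 66.5% and 65.8% in Ocn+/-, and 71.7%, 65.6% and 66.3% in Ocn-/- libraries. Its log2 ratio to Eno2 differed by -0.762 (exact permutation p = 0.0119, adjusted p = 0.0317). In testes Eno1 was 95.8% to 99.0% of both in all libraries, and the log2 ratio, with a difference of -0.845, overlapped between the groups (exact permutation p = 0.214). By genotype, the difference was -1.29 in Ocn+/- testes, without overlap with WT, and -0.398 in Ocn-/- testes, with overlap, and an exact permutation test of either cannot go below p = 0.10.

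The hexokinase ratio shifted in forebrain. There the share of Hk2 was 1.303%, 1.88% and 2.00% in WT and 0.860% to 1.10% in the 6 mutant libraries, so the log2 ratio of Hk1 to Hk2 was higher by 0.82 (exact permutation p = 0.0119, adjusted p = 0.0317). In testes, where the difference did not pass, Hk1 was 53.7% and 58.5% of both in WT, 47.8%, 48.6% and 54.3% in Ocn+/-, and 42.0%, 43.1% and 41.1% in Ocn-/- libraries. The testes ratio differed by -0.578 and overlapped in Ocn+/- (exact permutation p = 0.0714, adjusted p = 0.0952), with every Ocn-/- library below both WT libraries. The aldolase ratio did not pass, with differences of -0.39 in testes and -0.175 in forebrain (exact permutation p = 0.179 and 0.0595, adjusted p = 0.204 and 0.0952), although every Ocn+/- forebrain was below all 3 WT forebrains (-0.237). Without any 1 of the WT forebrains, whose number sets the smallest p, the 3 forebrain shifts kept their direction and had an adjusted p of 0.0714.

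The sum of both isozymes showed how far a step changed as a whole. Both lactate dehydrogenase transcripts together were at 386 and 423 CPM per kb in WT testes and at 203 to 271 in the mutants, and both enolases at 282 and 335 against 106 to 127. Both aldolases were at 335 and 381 against 177 to 229. The hexokinases, at 35.6 and 37.9 in WT against 27.3 to 34.4 in mutants, were closest. In forebrain both enolases were at 200 to 239 in WT and 143 to 161 in mutants, and both aldolases at 220 to 258 and 184 to 217, neither with overlap. Both lactate dehydrogenases, at 263 to 329 and 243 to 273, overlapped, as did both hexokinases, which were at 65.0 to 68.2 and 62.7 to 70.2.

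The other genes of the pathway were read as a list of 25, of which 18 passed the filter on low counts in each organ. In testes 8 of them were lower in Ocn+/- (Pfkl, Pfkp, Tpi1, Gapdh, Pgk1, Pgam1, Eno1b and Pgm1) and 7 in Ocn-/- (these without Pgam1, which is named after its values were seen), with 0 higher in either, where 4.36% and 3.09% of all genes were lower. Pgk1, phosphoglycerate kinase and the first ATP-yielding step, fell most, with a log2 fold change of -1.54 ± 0.117 over both genotypes (adjusted p = 7.14e-07), followed by Eno1b with -1.30 ± 0.124 and Tpi1, triose phosphate isomerase, with -1.19 ± 0.110. Pfkl and Pfkp, phosphofructokinases of the committed step, had log2 fold changes of -1.01 and -0.80 in Ocn+/-, and Gapdh, which makes the NADH that lactate dehydrogenase consumes, -0.83. In forebrain 4 were lower in each genotype (Pfkl, Pfkp, Tpi1 and Eno1b) and 0 higher, where 2.68% and 3.05% of all genes were lower. There Pfkl was at -0.78 and -0.73 and Pfkp at -0.81 and -0.70, while Gapdh (-0.07 and -0.14) and Pgk1 (-0.25 and -0.20) did not pass the test. The median log2 fold change of the list, both genotypes together, was -0.68 in testes and -0.11 in forebrain, against medians of -0.0035 and 0.0068 over all genes. The difference between the organs was called for 5 of 21 genes tested, where 2.96% of all genes were, namely Pgk1 (1.33 ± 0.145), Tpi1 (0.83 ± 0.132), Gapdh (0.78 ± 0.155), Eno1b (0.69 ± 0.155) and Pgm1 (0.69 ± 0.176), all with a more negative log2 fold change in testes. In forebrain, with both genotypes together, Gapdh (-0.10), Pgk1 (-0.22) and Pgm1 (-0.08) did not pass the test. Without WT forebrain 3 the 4 genes lower in each genotype of forebrain were called again, where 0.907% and 0.901% of all genes were lower, and Tpi1, Gapdh and Pgk1 still differed between the organs. Without WT testis 2 the testes calls were down to Tpi1, Pgk1 and Eno1b in each genotype, where 0.504% and 0.387% of all genes were lower, and Tpi1 and Pgk1 differed between the organs.

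**Figure D4:**
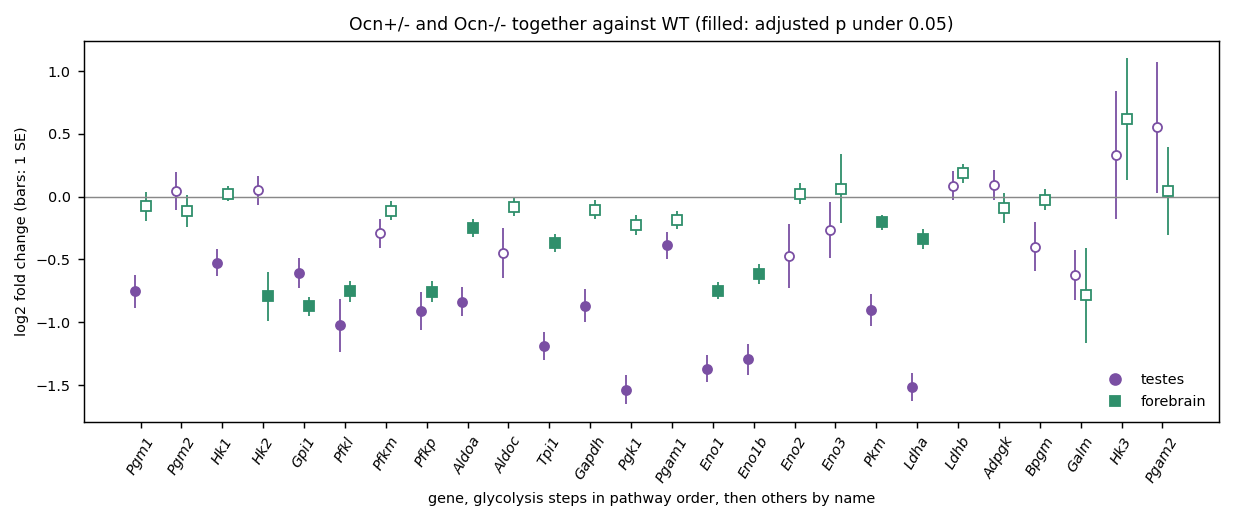
Log2 fold change of both mutant genotypes together against WT for the 10 members and the other tested genes of the pathway, ordered along it, in testes (circles) and forebrain (squares); bars are 1 SE and filled symbols have an adjusted p under 0.05. In testes Pgk1 and Ldha reach -1.54 and -1.51, while in forebrain the lowest called values, of Gpi1, Hk2, Pfkp, Pfkl and Eno1, lie between -0.87 and -0.75.

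For the member with the smallest p in each organ, the genes with the most similar pattern of log2 CPM across libraries were named, by Pearson correlation among protein-coding genes with a mean of at least 10 CPM. Across the 8 testes these were, for Ldha, Eno1 (r = 0.995), Armcx2 (0.994), Pgk1 (0.988), Aldoa (0.988) and Eno1b (0.979), of 10603 genes compared. Across the 9 forebrains they were, for Gpi1, Aasdh (0.983), Eno1 (0.979), Vegfa (0.976), Map2k6 (0.976) and Tpm4 (0.975), of 9949 genes. Without WT forebrain 3 these 5 correlations were 0.963 to 0.977 over 8 libraries. The correlations pool WT and mutant libraries, so a difference between the genotypes shared by 2 genes raises them. Vegfa encodes an angiogenic growth factor.

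The counting could blur some members. RSEM divides reads among genes that share sequence, and none of the 50-base stretches of a member occurred in another member, whose coding sequences were 71.4% (Hk1 and Hk2), 75.9% (Aldoa and Aldoc), 75.1% (Eno1 and Eno2) and 71.7% (Ldha and Ldhb) identical. Besides Eno1, 85.8% of the stretches of Aldoa occurred in the overlapping gene Gm57854, which held at most 1.06% of the number of Aldoa counts, and 38.5% of those of Pkm, 22.9% of Ldhb, 19.8% of Gpi1 and 19.1% of Ldha occurred in other genes. The copy sharing most with each held at most 2.7% of the number of counts of its member, Eno1b apart. Hk2 and Aldoc shared none, and Hk1 shared 6.93% with the antisense gene Hk1os, which had at most 9 counts, although the strandedness of the counting is not given in the sources used here. The members lie on chromosomes 10 (Hk1, 62104621 to 62215687), 6 (Hk2, 82699740 to 82751469; Eno2, 124736247 to 124746636; Ldhb, 142435672 to 142454586), 7 (Gpi1, 33900755 to 33929780; Ldha, 46490899 to 46505061; Aldoa, 126393822 to 126399923), 11 (Aldoc, 78213619 to 78218889), 4 (Eno1, 150321073 to 150337027) and 9 (Pkm, 59563364 to 59586663) of GRCm39.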

How the data were processed

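Testes (8 libraries) and forebrain (9) were profiled by poly-A RNA sequencing. The authors trimmed reads with Trim Galore 0.6.6, aligned them to GRCm39 with STAR 2.7.8a and deposited RSEM 1.3.3 expected counts per gene, unnormalized. RSEM shares reads between similar genes, so copies can take counts from a gene. The GENCODE release is not given in the sources used here; 54749 of 55359 identifiers were found in the annotation used for names and lengths.

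Expected counts were rounded for the fits but not for levels and ratios. Each organ was fitted with its 3 genotypes in edgeR 4.0.16 (R 4.3.3; TMM, filterByExpr, robust quasi-likelihood test without covariates, Benjamini-Hochberg adjustment over all genes tested, threshold 0.05), and all 17 libraries jointly for organ and interaction. Isozyme ratios, per canonical transcript length, were compared by two-sided exact permutation over libraries. Alternatives were DESeq2 1.42.0, other scalings, filters and tests, a replicate block, and each library left out. The fits were tested on simulated data. Mutants against WT recovered 94% of 2-fold changes in testes and 100% in forebrain, with 10 and 7 false calls. The interaction recovered 62% of 2-fold and 100% of 4-fold changes, with 10 false calls. Members, lists and tests were chosen with earlier results of these data known. All members are named; other pathway genes are named where called in both mutant genotypes of an organ or as paralogs, and the 5 genes most like the member with the smallest p in each organ. Total counts ran from 6518151 to 14621584. Some items are not reported here.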

Additional observations from a re-analysis of the deposited data

Results flagged for a closer look

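The difference between mutants and WT was not the same in both organs for 6 members, by the test of the interaction (edgeR quasi-likelihood, adjusted p under 0.05). The log2 fold change was higher in forebrain than in testes by 1.19 for Ldha, 0.71 for Pkm, 0.63 for Eno1, 0.60 for Aldoa and 0.56 for Hk1, and lower by -0.81 for Hk2. The first 4 of these were lower than WT in both organs and more so in testes, Hk1 was lower in testes and not called in forebrain, and Hk2 the reverse. Ldha alone was called in all 17 fits that left out 1 library. The counts of Hk2 in forebrain were 50 to 79 per library.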

How the results depend on the processing

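The counts of members called kept within 1.5 times under most alternatives, and 0 members were called between the mutant genotypes in any. With all libraries, 15023 of 17800 genes were called between organs and 526 for the interaction. A count of members called between organs therefore says little. Leaving out 1 library gave 2 to 6 members for Ocn+/- testes, 3 to 6 for Ocn-/- testes and for both together, 2 to 4 for Ocn+/- and 2 to 3 for Ocn-/- forebrain, 2 to 6 for both together, 9 to 10 between organs and 1 to 6 for the interaction. Without WT testis 2 the testes gave 2, 3 and 3 members and the interaction 1. Without WT forebrain 2 both genotypes together gave 2 in forebrain, and without WT forebrain 3 the counts were 3 (Ocn+/-), 2 (Ocn-/-) and 3 (together). DESeq2 called 5 members in Ocn-/- forebrain in place of 3, adding Ldha (adjusted p = 0.0465) and Pkm (0.0352). Scaling by library size alone called 3 in place of 6 with both genotypes together in forebrain, and 4 in place of 6 in Ocn+/- testes. It raised the share of higher genes, from 738 of 1626 calls to 1201 of 1834 in testes and from 529 of 1395 to 738 of 1142 in forebrain, with the median of all genes shifted to 0.07 and 0.10. Between organs it gave 5604 higher and 9550 lower genes in place of 7094 and 7929. It reversed Gpi1 between organs (-0.16), and the WT libraries alone reversed Ldha (-0.40).

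Counts over all genes moved by over 1.5 times without a filter on low counts (testes Ocn+/- 1350 to 2149, Ocn-/- 922 to 1763; forebrain 625 to 1265 and 780 to 1502; interaction 526 to 1023), without WT forebrain 3 (forebrain 625 to 183, 780 to 189; interaction 526 to 274) and without WT testis 2 (interaction 526 to 93). The likelihood ratio test called 1389 in Ocn-/- testes, 944 in Ocn+/- forebrain and 948 for the interaction, DESeq2 1027 for the interaction, library size alone 369 in Ocn+/- forebrain, and fitting only the genotypes compared 2084 in Ocn+/- testes. Between the mutant genotypes of testes the unfiltered fit called 252 genes and a minimum of 10 counts 3, and in forebrain 34 and 0.

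The WT libraries alone gave organ differences of the log2 ratios of 5.499 (Hk1/Hk2), -3.676 (Aldoa/Aldoc), -4.498 (Eno1/Eno2) and 0.2453 (Ldha/Ldhb), which 3 against 2 libraries could not call. Without 1 library the forebrain shifts ranged from 0.7012 to 1.017 for Hk1/Hk2, -0.8232 to -0.7172 for Eno1/Eno2 and -0.5713 to -0.4585 for Ldha/Ldhb, and passed unless a WT library was missing, which leaves too few libraries to pass. The testes shift of Ldha/Ldhb ranged from -1.746 to -1.454. Adding Eno1b counts to Eno1 changed none of these calls.

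Samples with the same replicate number correlated by -0.0937 to 0.146 in their deviations from the group means. With 2 or 3 libraries per group, such values cannot decide whether the number pairs them. With it as a block, 5 members were called in Ocn+/- testes (Gpi1 lost, adjusted p = 0.0556), 6 in Ocn-/- testes and 3 in each genotype of forebrain. Genes called lower there were 533 and 464 of 16361 in testes and 516 and 661 of 16076 in forebrain. The block gave 8 members between organs and 6 for the interaction, where 13128 and 365 of 17800 genes were called. Depth limits Hk2 in forebrain and Eno2 and Aldoc in testes, with under 200 counts per library.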
